A study of Mus musculus with 2 samples.

Results

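Tumour necrosis factor (TNF), the lymphotoxins, the TNF receptors and the proteins that carry their signal were examined in lipopolysaccharide-treated macrophages with and without the phosphatase PAC1. The set held 9 genes, taken by name from an annotation of the array, among 8220 genes that the annotation named with 1 symbol: the ligands Tnf, Lta, Ltb and Tnfsf9, the receptors Tnfrsf1a and Tnfrsf1b, the adaptors Traf1 and Traf2, and the TNF-induced gene Tnfaip2. All 9 were on the array, with 10 probe sets, since Lta had 2 and the others 1 each. The arrays compared Pac1-/- mice with their Pac1+/+ (wild-type) littermates of matched age. The mice received thioglycollate, a sterile irritant, in the peritoneum 4 days before the lavage, and the macrophages were purified by adherence and then treated with 100 ng/ml LPS for 6 hours. LPS is a component of the Gram-negative cell wall that triggers Toll-like receptor 4, and cells of both genotypes received it. Each genotype had 1 array, so no difference below has a replicate check or a test, and how many mice lie behind an array is not stated.

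TNF is made by macrophages within hours of LPS and is a main driver of inflammation and shock. It is cut from the cell surface as a trimer and binds TNFR1 (Tnfrsf1a), which most cells carry, and TNFR2 (Tnfrsf1b), which is common on leukocytes. Lymphotoxin alpha (Lta) binds the same receptors when secreted, and together with lymphotoxin beta (Ltb) it forms a membrane complex that binds the lymphotoxin beta receptor, which directs lymph node development. Lymphotoxins are chiefly products of lymphocytes. TRAF proteins join the receptors to the kinases that activate NF-kB and the MAP kinases, and PAC1, the protein of Dusp2, removes phosphate from MAP kinases in the nucleus.

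Signals are MAS5 intensities in arbitrary units, and they do not measure transcript abundance on a scale shared between probe sets, so "bright" and "dim" describe signals, as do summed signals of a marker list, and only ratios within a probe set compare the genotypes. A floor at the median of all signals, 36.4, marked values too dim to order, and a gene was eligible when at least 1 array was above it, which held for 5119 genes. Dusp2 itself was at 76.8 in knockout cells and 333.0 in wild-type cells (log2 ratio of knockout over wild type −2.12). The labels do not say which part of Dusp2 was deleted or where its probes fall, so this checks the genotypes only in part. All 10 macrophage markers were above the floor on both arrays, 8 of them higher and 2 lower in the knockout, with summed signals of 41595 in knockout cells and 36648 in wild-type cells. Among them Itgam, which encodes the Mac-1 integrin used to check purity, was at 356 in knockout cells and 301 in wild-type cells, and the brightest, Ctss, was at 15423 in knockout cells and 13417 in wild-type cells. Msr1, a scavenger receptor gene, was the only one 1.5-fold or more apart, at 1366 in knockout cells and 2171 in wild-type cells by its brighter probe set. Its dimmer probe set, at 240 in knockout cells and 296 in wild-type cells (log2 ratio −0.30), did not reach 1.5-fold.

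After LPS, most genes of the TNF system differed little between the arrays. Of the 8 member genes that could be measured, 6 lay within 1.5-fold of the wild type, and the log2 ratios of these 6 ran from −0.27 to 0.08. Of all eligible genes, 87.9% did not reach 1.5-fold, where a gene with 1 signal under the floor counts by its bound. Lta was 1.83-fold higher and Ltb 1.68-fold lower in the knockout, both at dim signals, and 0 of the 8 were 2-fold apart. Tnfaip2 was below the floor on both arrays. In counts, 1 of 8 members was 1.5-fold or more higher, against 6.37% of all eligible genes, and 1 of 8 was 1.5-fold or more lower, against 5.72%. All eligible genes split into 326 higher and 293 lower at this fold, and into 214 higher and 457 lower once the array medians were made equal, which left the members' counts at 1 and 1. For a 2-fold difference in either direction the share of eligible genes was 2.31%. The median log2 ratio was −0.04 over the 8 members and 0.02 over all eligible genes.

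**Figure D1:**
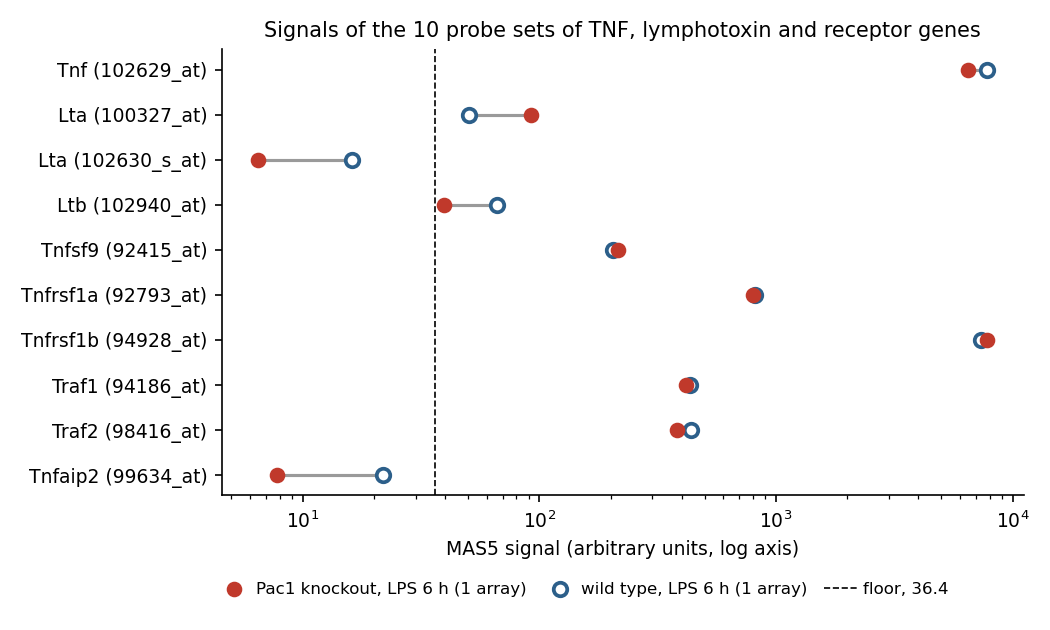
MAS5 signal (log axis, arbitrary units) of each of the 10 probe sets on the knockout array (filled) and the wild-type array (open), with the floor of 36.4 as a dashed line. Only Lta (100327_at) and Ltb show a clear gap to the right of the floor, in opposite directions, while the second Lta probe set and Tnfaip2 lie left of it on both arrays.

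Tnf (probe set 102629_at), the founding ligand of the family, had a signal of 6490 in knockout cells and 7817 in wild-type cells. The knockout signal was 83.0% of the wild-type signal (log2 ratio −0.27), and both lay far above the floor. Of eligible genes, 19.18% had a lower ratio than Tnf. Eligible genes were split by mean signal into 5 ranges of nearly equal size. In the brightest range, where the typical (median) distance between the arrays was 0.14 on the log2 scale, 21.7% of genes were at least as far apart as Tnf. With no second array of either genotype, it cannot be said whether this difference exceeds the spread between mice.

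Lymphotoxin alpha had a measured value from 1 of its 2 probe sets. Probe set 100327_at had a signal of 91.8 in knockout cells and 50.2 in wild-type cells (log2 ratio 0.87), the highest ratio of the set. Probe set 102630_s_at had 6.5 in knockout cells and 16.1 in wild-type cells, both below the floor, so neither a fold nor a direction is read from it. The suffix of that probe set marks probes shared by several transcripts. The higher Lta call therefore rests on 1 dim probe set. In the signal range of 100327_at, the second dimmest of the 5, 22.5% of genes were 1.5-fold or more apart and 9.47% at least as far apart as Lta.

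Lymphotoxin beta (probe set 102940_at) went the other way, with a signal of 39.4 in knockout cells and 66.2 in wild-type cells (log2 ratio −0.75). The knockout value lay just above the floor. In its range, the dimmest, 17.0% of genes were 1.5-fold or more apart and 8.3% at least as far apart as Ltb. Ltb lay near the upper end of that range (mean signals 20.1 to 53.05), and the floor limits how far apart its dimmest genes can be. The 8.3% is therefore no share of genes as bright as Ltb. In the next range, which starts at 53.1, 22.5% were 1.5-fold or more apart. The receptor of the membrane lymphotoxin complex, Ltbr, was measured above the floor on both arrays, at 211 in knockout cells and 259 in wild-type cells (−0.30).

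Ltb, Tnf and Lta follow one another on mouse chromosome 17 with no other protein-coding gene between them in RefSeq (assembly GRCm38.p6), and their log2 ratios were −0.75, −0.27 and 0.87. The 250 bases before the annotated starts of Tnf and Ltb are shown because these neighbours were both lower in the knockout at very different distances from the floor. RefSeq places them at chr17:35202008-35202257 on the minus strand for Tnf and at chr17:35194257-35194506 on the plus strand for Ltb (GRCm38.p6). They are written 5′ to 3′ along each gene, with the last base next to the start, and capitals mark every match found.
Tnf: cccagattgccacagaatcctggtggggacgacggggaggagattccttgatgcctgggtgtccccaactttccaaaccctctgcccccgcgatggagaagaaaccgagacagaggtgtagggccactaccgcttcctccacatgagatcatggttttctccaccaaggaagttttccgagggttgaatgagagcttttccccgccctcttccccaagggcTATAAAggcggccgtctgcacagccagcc
Ltb: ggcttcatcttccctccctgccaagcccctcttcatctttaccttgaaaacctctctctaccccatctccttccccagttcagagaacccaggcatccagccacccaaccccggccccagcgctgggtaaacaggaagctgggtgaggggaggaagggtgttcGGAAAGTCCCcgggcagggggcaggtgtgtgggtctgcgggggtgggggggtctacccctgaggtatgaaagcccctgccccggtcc
The motifs searched, on both strands, were the kappaB consensus of NF-kB, the AP-1 motif TGANTCA, the cyclic AMP response element TGACGTCA and the TATA box TATAAA. The Tnf stretch held 1 TATAAA, beginning 29 bases before the start, and the Ltb stretch held 1 kappaB match on the opposite strand, beginning 87 bases before the start. Across all 32851 RefSeq promoter stretches of this length, 12.4% held TATAAA, 3.9% a kappaB match, 6.75% TGANTCA and 1.55% TGACGTCA. Of the other 6 members in the RefSeq promoter table, Lta, whose window lies partly inside the annotated gene, held 1 TATAAA, and the remaining ones, Tnfrsf1a, Tnfrsf1b, Traf1, Traf2 and Tnfaip2, held no match in this window. A match describes letters and shows no binding. Only these exact patterns were searched, so a site with other letters goes unmarked. The lack of a match therefore does not show the lack of a site.

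Tnfsf9 (probe set 92415_at) encodes the ligand of 4-1BB, a costimulatory receptor of T cells. It was at 215 in knockout cells and 205 in wild-type cells (log2 ratio 0.07), and 79.8% of eligible genes of its signal range were at least as far apart. The gene of its receptor, Tnfrsf9, was below the floor on both arrays with both of its probe sets, and was named for that pairing, outside the rule for named genes.

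Both TNF receptor genes were close to the wild-type level. Tnfrsf1a (92793_at), the death-domain receptor TNFR1, was at 798 in knockout cells and 813 in wild-type cells (log2 ratio −0.03), which is 98.1% of the wild-type signal. Tnfrsf1b (94928_at), the receptor TNFR2, which lacks a death domain and binds TRAF2 directly, was at 7773 in knockout cells and 7376 in wild-type cells (0.08). In the brightest range, 88.7% of genes were at least as far apart as Tnfrsf1a and 73.4% as Tnfrsf1b. The direction of differences this small depended on how the arrays were scaled. Tnfrsf1b and Tnfsf9 became lower in the knockout once the array medians were made equal (−0.04 and −0.05), and Tnfrsf1a became higher after quantile normalization (0.02).

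Of the adaptors, Traf2, which recruits ubiquitin ligases to both TNF receptors, was at 383 in knockout cells and 439 in wild-type cells (log2 ratio −0.20, probe set 98416_at). Traf1 (94186_at), a TRAF without the RING domain that is itself induced by NF-kB, was at 415 in knockout cells and 433 in wild-type cells (−0.06). In their signal range 47.3% and 81.4% of eligible genes were at least as far apart as Traf2 and Traf1. Tnfaip2 (99634_at), a gene first found as TNF-induced in endothelial cells, had 7.8 in knockout cells and 21.8 in wild-type cells. Both values were under the floor, so no fold is given at this setting. With the floor lowered to the 25th percentile (a signal of 9.9) it counted as at least 2.20-fold lower in the knockout, from signals that the main floor marks as too dim to order. At that lower floor the second Lta probe set, also under the main floor, had a log2 ratio of −0.70.

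**Figure D2:**
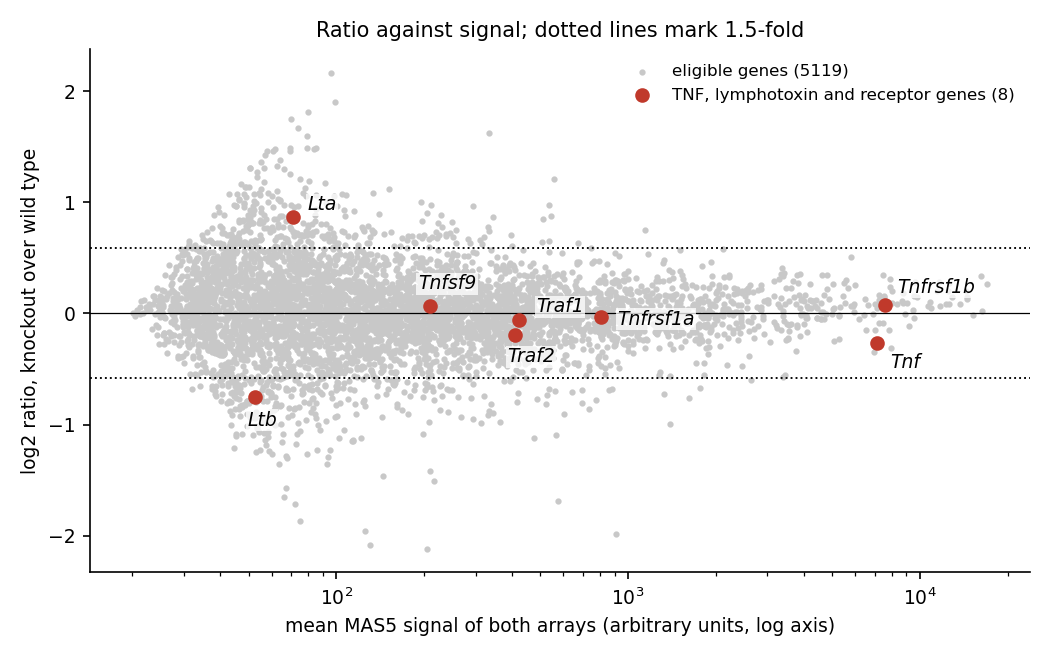
Log2 ratio of knockout over wild type against the mean signal of both arrays (log axis) for the 5119 eligible genes (grey) and the 8 measured members (red), with dotted lines at 1.5-fold. Lta and Ltb lie beyond the lines at the dim end, where the grey cloud is widest, and the other 6 lie between them.

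The ratios were recomputed under 9 other ways of scaling, flooring and summarising the signals. Tnf stayed lower in the knockout in all of them (log2 ratios from −0.39 to −0.27), and so did Traf2 (−0.31 to −0.17) and Traf1 (−0.18 to −0.02). For these genes only the changes of scaling could move the ratio noticeably. Tnf was at −0.39 with equal medians, −0.37 after quantile normalization and −0.33 after a signal-dependent (loess) scaling. The other settings left it at −0.27 by construction, so they are no separate checks. Ltb ran from −0.87 to −0.73 in the 8 settings where it could be measured, and Lta from 0.44 to 0.87 in 8, where 0.44 is the mean over both probe sets with the second, below the floor, set to 0. No rescaling, the lower floor and leaving out cross-hybridising probe sets returned the main ratios of Ltb and Lta by construction (−0.75 and 0.87). The mean over probe sets did so for Ltb, which has 1 probe set. These settings are no separate checks of either gene.

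**Figure D3:**
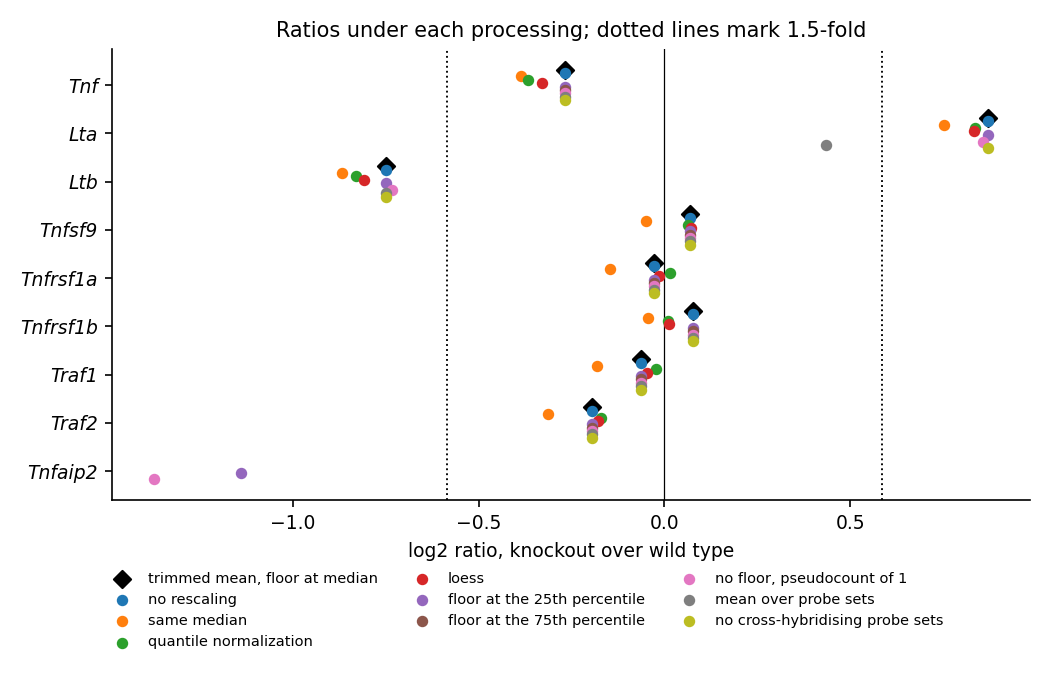
Log2 ratio of knockout over wild type of each member under the main processing (diamond) and 9 alternatives (circles), with dotted lines at 1.5-fold. Ltb stays beyond the lower line wherever it was eligible and Lta beyond the upper line except as a mean over probe sets, where its second probe set counts as 0 because both signals are below the floor, while Tnfaip2 has a value only under a lower floor or none.

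The rest of the pathway was described through 5 lists by role. Of all eligible genes, 6.37% were 1.5-fold or more higher and 5.72% lower, for comparison with the counts below. In all these counts a gene with 1 signal under the floor enters by its bound, so its fold can be larger than counted. Among other TNF family ligands, 8 of the 14 listed were on the array and 3 were eligible, of which 0 were 1.5-fold apart. The brightest of them were Tnfsf10, which encodes the death ligand TRAIL, at 116 in knockout cells and 83.4 in wild-type cells (log2 ratio 0.48), and Cd70, a ligand of T cell costimulation, at 66.1 in knockout cells and 76.9 in wild-type cells (−0.22). Among other receptors, 7 of the 13 on the array were eligible, with 1 of them 1.5-fold higher and 0 lower and a median of 0.13. That gene was Fas, the receptor of Fas ligand in apoptosis, at 97.7 in knockout cells and 55.6 in wild-type cells (0.81), read by 1 probe set with a cross-hybridisation suffix. Cd40, the costimulatory receptor of activated macrophages and B cells, was at 4127 in knockout cells and 3779 in wild-type cells (0.13).

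Of 15 eligible genes of further TRAFs and receptor signalling, 1 was 1.5-fold higher and 2 were lower by their brightest probe set, with a median log2 ratio of 0.07. Traf4, the TRAF of epithelial and neural development, was at 58.2 in knockout cells and 112 in wild-type cells (−0.94). Birc2, which encodes the ubiquitin ligase cIAP1 that TRAF2 brings to the receptor, was at 90.5 in knockout cells and 157 in wild-type cells (−0.80). Cflar, which encodes FLIP, an inhibitor of caspase-8, was at 88.6 in knockout cells and 48.3 in wild-type cells (0.88). These genes were also dim. The brighter kinase gene Tbk1 was at 686 in knockout cells and 746 in wild-type cells (−0.12), and Tank, a TRAF-binding regulator, at 602 in knockout cells and 711 in wild-type cells (−0.24). Traf6 was at 277 in knockout cells and 265 in wild-type cells (0.07) by its brightest probe set. A dimmer one was at least 1.69-fold higher (61.6 in knockout cells and 26.6, below the floor, in wild-type cells), and another was below the floor on both arrays.

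**Figure D4:**
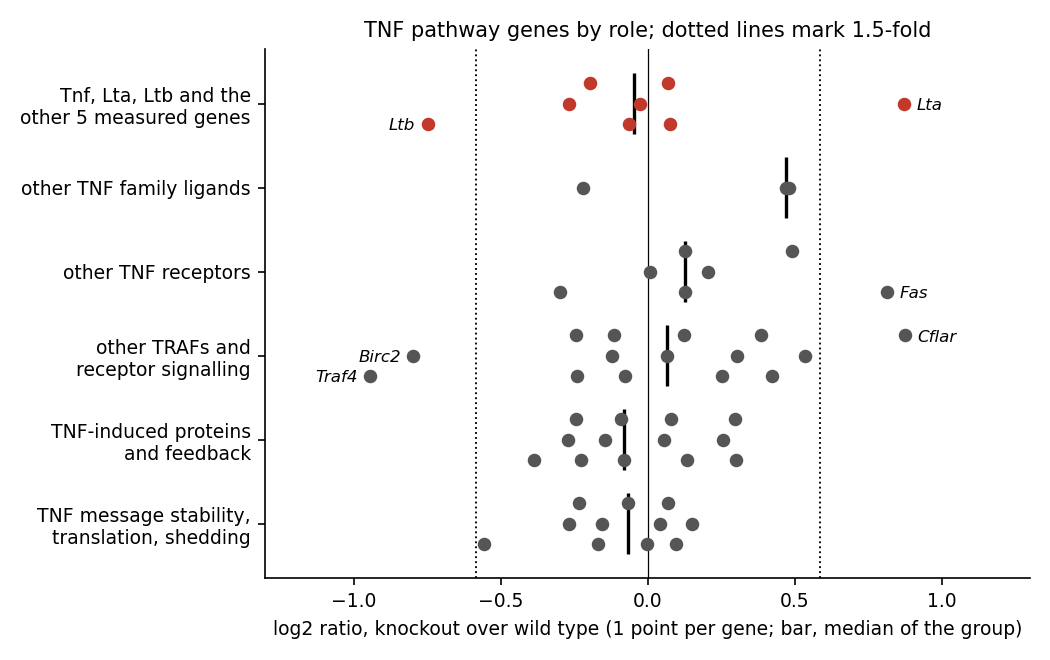
Log2 ratio of knockout over wild type for each eligible gene (point) of the member set (red) and of 5 pathway lists (grey), with the median of each group as a bar and dotted lines at 1.5-fold. A gene with 1 signal under the floor is drawn at its bound. Beyond the lines lie Lta, Fas and Cflar on the higher side and Ltb, Birc2 and Traf4 on the lower side.

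Of 13 eligible TNF-induced and feedback genes, 0 were 1.5-fold apart by their brightest probe set, with ratios from −0.39 to 0.30 and a median of −0.08. The lowest was Relb, at 234 in knockout cells and 307 in wild-type cells. Its dimmer probe set, which has a cross-hybridisation suffix, was 1.78-fold higher (68.2 in knockout cells and 38.4 in wild-type cells). Nfkbia, which encodes the NF-kB inhibitor that NF-kB itself induces, was at 3376 in knockout cells and 3247 in wild-type cells (log2 ratio 0.06), while its dimmer probe set had 2265 in knockout cells and 2712 in wild-type cells (−0.26). Sod2, the mitochondrial superoxide dismutase induced by TNF, was at 3505 in knockout cells and 3190 in wild-type cells (0.14). Of 11 eligible genes of TNF message stability, translation and shedding, 0 were 1.5-fold apart and the median was −0.07. Mapkapk2, the kinase below p38 that allows TNF translation, was at 3372 in knockout cells and 3758 in wild-type cells (−0.16), with its dimmer probe set at 80.1 in knockout cells and 54.9 in wild-type cells (0.55). Litaf, named for regulating Tnf after LPS, was at 2355 in knockout cells and 2205 in wild-type cells (0.10). Over these lists and the neighbours of the Tnf locus, 51 genes other than the members were eligible. By the floored ratio, 2 of them were 1.5-fold higher, 2 lower and 47 did not reach 1.5-fold. Of all eligible genes, 6.37% were higher, 5.72% lower and 87.9% did not reach 1.5-fold on the same measure. A gene with 1 signal under the floor counts by its bound, so its fold can be larger than counted. Each such gene of these lists had only its knockout signal above the floor. In the brightest signal range only 3.03% were 1.5-fold or more apart, so few bright genes of any kind pass this fold. The brightest such neighbour, Lst1, was at 256 in knockout cells and 185 in wild-type cells (0.47).

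Since lymphotoxins are lymphocyte products, lymphocyte markers were read beside Lta and Ltb. In bulk RNA, fewer cells of a type and less RNA per cell cannot be told apart. Of 9 T cell markers 7 were below the floor on both arrays, the CD3 chain genes Cd3e, Cd3d and Cd3g among them. The list summed to 175 in knockout cells and 169 in wild-type cells. This sum, like that of the B cell list below, includes signals below the floor, which are too dim to order. The eligible ones were Cd4, at least 2.05-fold lower in the knockout (32.8 in knockout cells against 74.5 in wild-type cells), and Zap70, at least 1.94-fold higher (70.6 in knockout cells against 25.5 in wild-type cells) by 1 of 3 probe sets, the other two being below the floor. Of 8 B cell markers 7 were eligible, 1 of them 1.5-fold higher and 2 lower, with sums of 660 in knockout cells and 720 in wild-type cells. Ms4a1, which encodes CD20, was at 52.2 in knockout cells and 87.4 in wild-type cells (log2 ratio −0.74), and Ighm, the IgM heavy chain, at 123 in knockout cells and 230 in wild-type cells (−0.90). Cd79a was at least 2.75-fold higher (100.2 in the knockout and 20.7, below the floor, in the wild type), and the brightest, Cd22, was at 197 in knockout cells and 177 in wild-type cells. Of 6 NK cell markers 1 was eligible, Klrk1, with a log2 ratio of 0.02. Of the other lists, neutrophil markers had 5 of 9 eligible, led in signal by S100a8 (367 in knockout cells and 386 in wild-type cells), and stromal markers had 5 of 8, led by Col1a1 (374 in knockout cells and 514 in wild-type cells), with 0 of either 1.5-fold apart. Mast cell markers had 3 of 7 eligible, led by Cma1 (206 in knockout cells and 188 in wild-type cells), and Tpsb2 was 1.66-fold higher (192 in knockout cells and 116 in wild-type cells). The part of these cells in the Lta and Ltb signals was not tested.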

How the data were processed

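Total RNA (500 to 1000 ng) was copied from a poly(T) primer, amplified by a method for small samples and biotinylated, per the labels' protocols. Macrophages were 92 to 95% Mac-1 positive, per the labels. The deposited intensities are 1 MAS5 signal per probe set, per the submitters' processing notes (no version is named), on 2 arrays of 12654 probe sets. Trimmed means (2% cut from each end) were 150.015 on both arrays, so the deposited values had been scaled alike, and the medians were 38 (knockout) and 35 (wild type). Priming at the poly(A) tail weights transcript 3′ ends. The 3′ to 5′ control ratios were 2.42 and 2.54 for actin and 1.62 and 1.81 for Gapdh (knockout, then wild type).

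Probe sets were named through a platform annotation, 10276 of them with 1 symbol. Some probe sets of this array generation read the wrong strand and were not singled out. Arrays were set to 1 trimmed mean, signals raised to the floor of 36.4 (the median of all signals), and log2 ratios taken of knockout over wild type. The brightest probe set stood for a gene in counts. A fold with 1 signal below the floor is written as "at least" and enters the counts by that bound. No test was run with 1 array per genotype, whose number limits the precision. A difference counted from 1.5-fold. Eligible genes were split into 5 signal ranges by mean signal.

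Named genes were the members, Dusp2, list genes above the floor on both arrays and 1.5-fold apart, the 2 brightest of each list, and markers that were brightest or 1.5-fold apart. The CD3 genes, Itgam and Tnfrsf9 were added for what they encode, Relb because its probe sets differ in direction, and Traf6 because a dimmer probe set passed 1.5-fold. Members and lists were chosen with earlier results of these data known. Of the 9 members, 8 had a RefSeq promoter entry. The calculation was tested on simulated data with changes planted in brighter genes only. That test does not cover signals as dim as those of Lta, Ltb and Tnfaip2. Python 3.11.15, numpy 2.4.6, pandas 2.3.3, scipy 1.17.1 and statsmodels 0.14.6 were used. Alternatives covered scaling, floor and choice of probe set.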

Additional observations from a re-analysis of the deposited data

How the results depend on the processing

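Each result was recomputed under 9 alternatives. The number of members 1.5-fold or more higher (1, Lta) was 0 once the floor was raised to the 75th percentile, where Lta and Ltb were no longer eligible, and 0 as the mean over probe sets, where the second Lta probe set counts as 0 because both of its signals are below the floor, so that the mean is lower by construction. The number lower (1, Ltb) was 0 with that floor, and 2 of 9 once the floor was lowered to the 25th percentile or removed, where Tnfaip2 joined Ltb. Such counts moved with the floor for all genes. With the lower floor 1038 of 7128 eligible genes were higher and 816 lower, and with none 1406 of 8220 were higher and 1118 lower. With the higher floor 53 of 2675 were higher and 72 lower. The second Lta probe set had a log2 ratio of −1.19 with no floor and −0.70 with the lower floor, opposite in direction to the first. Both come from signals that the main floor marks as too dim to order. The member counts were the same under the remaining alternatives, and the median over members moved by less than 0.21, the typical distance between the arrays, in all 9. That limit is wide beside the main median of −0.04. The median ran from −0.16 with equal medians to −0.01 after quantile normalization. For pathway genes outside the set (alternatives chosen after seeing the data), 2 of 51 were higher and 2 lower. These became 14 and 8 with the lower floor, and 16 and 8 of 72 with none. The counts of all eligible genes at these floors, given above, rose as well. The pathway counts were 0 and 0 with the higher floor (Traf4, Cflar and Fas have no value there and Birc2 is raised to it on the knockout array). They were 2 and 3 with equal medians, and 1 and 2 without cross-hybridising probe sets, where Fas had no value. Scaling to the same median moved the median of all eligible genes to −0.10 and their 1.5-fold split to 214 higher and 457 lower, against 326 and 293. No paired analysis was possible because each genotype had 1 array. The signal limits Lta, Ltb and Tnfaip2, which lay near or under the floor.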
